A study of Mus musculus with 12 samples.

Results

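The 10 genes described here encode the parts of the Cop1 ubiquitin ligase complex and the Tribbles adaptors that bring substrates to it: Cop1, Det1, Dda1, Ddb1, Cul4a, Cul4b, Rbx1, Trib1, Trib2 and Trib3. They were taken by gene symbol from the count table, and all 10 were found among its 22298 genes. The rule uses no measured value, but the set was chosen with earlier results of these data known. All 10 also passed the filter on low counts, which left 11904 genes for testing. RNA came from 4T1 cells, a mouse mammary carcinoma line of the BALB/c strain. Of the 6 groups, 3 received vehicle: cells with a Rosa26 guide RNA, which targets a locus commonly used as a neutral control, cells with Cop1 sgRNA1 and cells with Cop1 sgRNA2. The other 3 groups were the same guide populations given the cytokine IFNγ (interferon gamma), 20 ng/ml over 24 hours. Each group had 2 libraries. Below, "Cop1 loss" is the name of the comparison of the mean of both Cop1-guide populations with the Rosa26 population, and the Rosa26 libraries of a treatment serve as its only controls.

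The labels do not say whether the 2 libraries of a group came from separate cultures, so p-values measure the spread between these libraries, which may be technical. They also do not say whether a guide population was a pool or 1 clone, how the nuclease was supplied, or where in Cop1 each guide cuts. A difference between the Rosa26 population and a Cop1-guide population therefore cannot be told apart from any other difference that arose while those populations were grown.

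COP1 is a RING-finger ubiquitin ligase with WD40 repeats that recognise a short peptide motif. In mammals it works together with DET1 and DDB1, which connect it to the cullins CUL4A and CUL4B and their RING partner RBX1, and DDA1 is a small protein of the same assembly. The Tribbles proteins TRIB1, TRIB2 and TRIB3 are pseudokinases: their kinase-like domain holds a substrate, such as a C/EBP factor in the case of TRIB1 and TRIB2, and their C-terminal tail holds COP1. TRIB3 is also known as an inhibitor of AKT and as a transcriptional target of the stress factors ATF4 and CHOP. The known substrates of COP1 include c-Jun, C/EBP factors and several ETS factors, which are controlled at the level of protein stability. RNA levels of the ligase, its adaptors and its substrates do not measure that step.

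Libraries held 19378070 to 32609717 counts, and the members' counts ran from 259 for Det1 to 46045 for Ddb1 in a single library. Values below are TMM-scaled CPM, which relate a gene's counts to the size of its library. Changes are log2 values ± standard error (SE) from the quasi-likelihood F test of edgeR; p was adjusted by Benjamini and Hochberg's method over all 11904 genes, and a call is an adjusted p under 0.05. Beyond counting noise, replicates varied by 3.21% (edgeR's biological coefficient of variation), so that small changes passed the test, and calls covered a large share of all genes. The 10 epithelial markers of 4T1 cells summed to 3814 to 4706 CPM per library. With Cop1 loss, 4 of them were called higher and 4 lower in vehicle, where 16.6% and 19.2% of all genes were. With IFNγ 5 were called higher and 4 lower, beside 19.8% and 20.7% of all genes. In vehicle the mean of Cdh1 was 490.7 CPM in Rosa26, 334.7 with sgRNA1 and 370.5 with sgRNA2. That of Krt8 was 1092, 1300 and 1281 CPM in the same order. The defining leukocyte gene Ptprc reached at most 0.260 CPM, and 8 of the 18 leukocyte markers had no count in any library. Summed leukocyte markers, mostly Cd14, Cd68 and S100a8, lay at 30.6 CPM in Rosa26 vehicle libraries against 23.5 to 26.4 CPM in Cop1-guide vehicle libraries, and at 39.2 to 40.9 against 24.0 to 31.0 CPM with IFNγ. With Cop1 loss, Cd14 (-0.25 in vehicle and -0.60 with IFNγ) and Cd68 (-0.40 and -0.60) passed the test as lower. The vehicle call of Cd14 ended with DESeq2 (adjusted p = 0.0828) and without Rosa26 replicate 1 (0.262), sgRNA1 replicate 1 (0.0514) or sgRNA2 replicate 1 (0.0626), and that of Cd68 without Rosa26 replicate 2 (0.135). The 13 fibroblast and endothelial markers, mostly Pdgfra, summed to 23.8 to 25 CPM in Rosa26 vehicle, 21.5 to 24.4 with sgRNA1 and 18.3 to 19.6 with sgRNA2, and to 16.6 to 18.0 CPM over the IFNγ libraries. In vehicle Pdgfra (-0.26) and Col1a1 (-1.80, at most 17 counts in a library) passed the test as lower, and with IFNγ neither did. Both calls ended without Rosa26 vehicle replicate 2 (adjusted p = 0.150 and 0.0662), that of Pdgfra also without sgRNA1 replicate 1 (0.0649) and that of Col1a1 without Rosa26 replicate 1 (0.0876). The part of these markers in the members' results was not tested.

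Against the Rosa26 population, the vehicle-treated Cop1-guide populations had less Cop1 and Trib3 RNA, more Trib1 and Trib2 RNA, and smaller changes in the ligase core. Of the 10 genes, 7 passed the test, where 35.8% of all genes did. Of all genes called, 46.4% were higher, and 36.9% were with library totals alone as scaling. Dda1, Rbx1, Trib1 and Trib2 rose (4 genes, against 16.6% of all genes that rose), and Cop1, Ddb1 and Trib3 fell (3 genes, against 19.2% of all genes that fell). With the further demand of a change of at least 1.5-fold, 3 members were left (Cop1, Trib2 and Trib3), where 4.73% of all genes were. The median change of the 10 genes was 0.11, and their median absolute change was 0.24 against 0.14 over all genes.

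**Figure D1:**
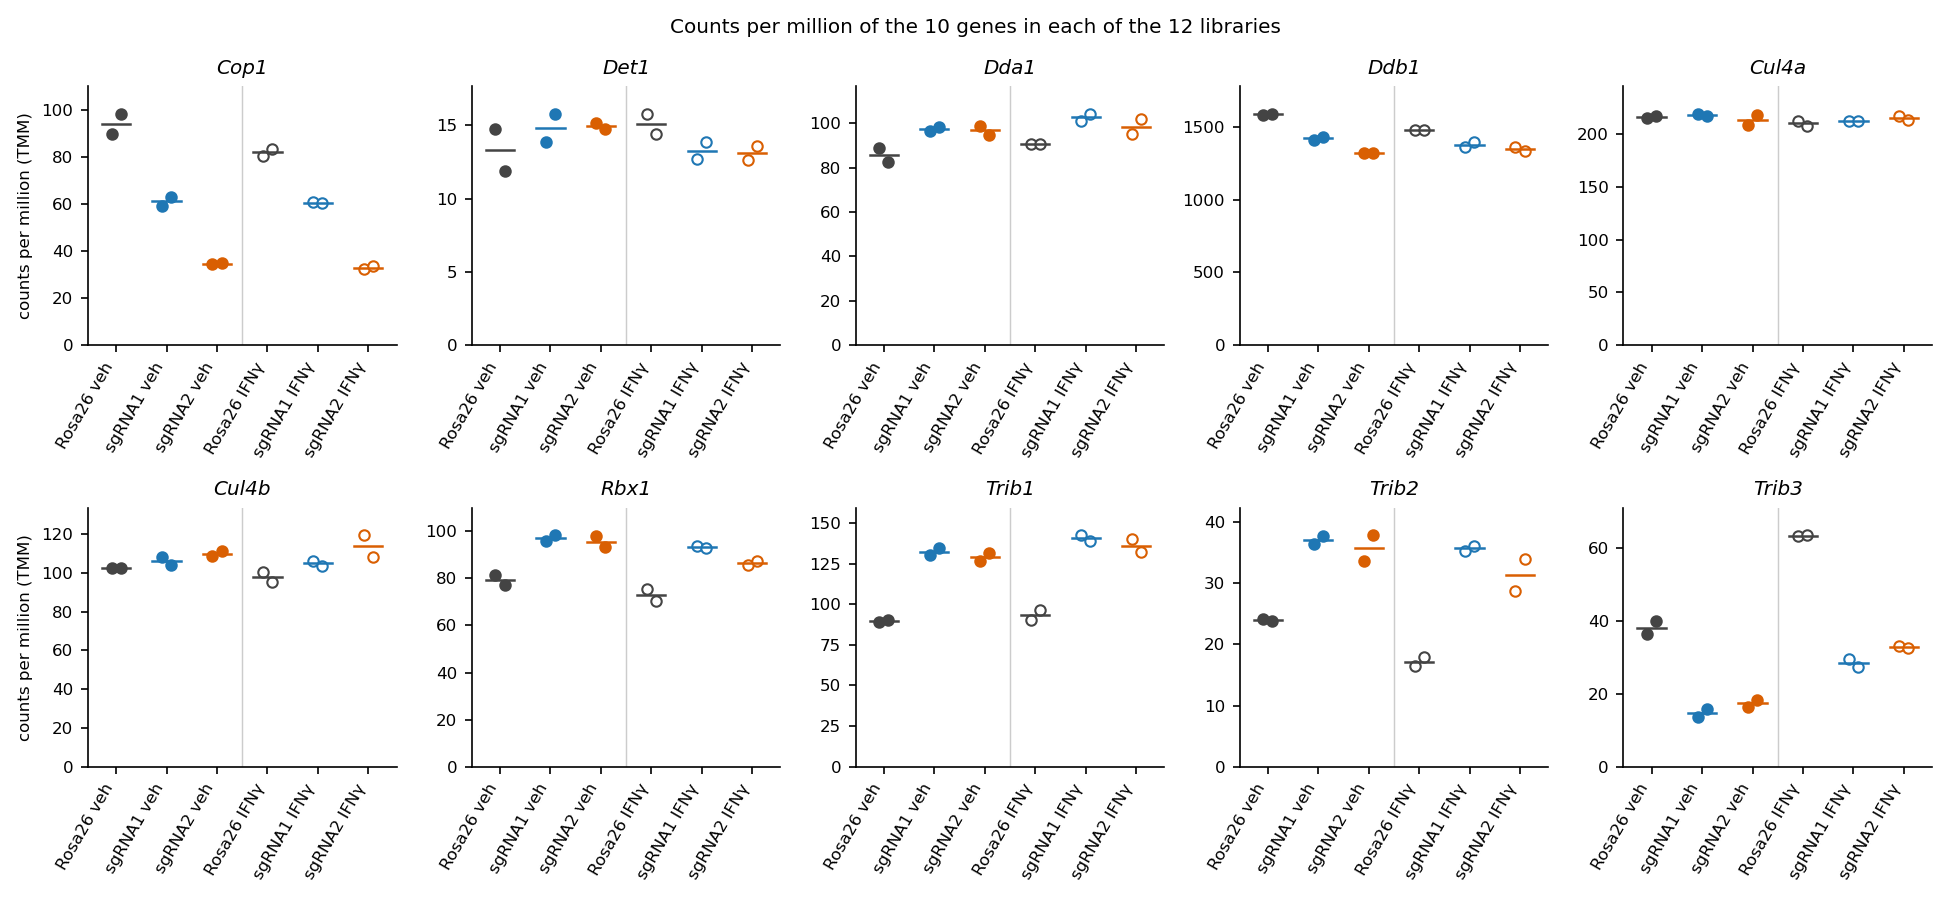
CPM (y axis, linear, from 0, its own range in each panel) of each of the 10 genes in the 6 groups (x axis). Each point is 1 library, each horizontal bar the mean of the 2 libraries of a group; filled points are vehicle, open points IFNγ. In every Cop1-guide library, Cop1, Ddb1 and Trib3 are lower than in either Rosa26 library of the same treatment. Dda1, Cul4b, Rbx1, Trib1 and Trib2 are higher there, though Cul4b was not called in vehicle. The share of all genes separated in this way was not counted. Cul4a lies between 208 and 219 CPM in all libraries.

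Cop1 (ENSMUSG00000040782.12, chromosome 1, 159232320 to 159347640 on the plus strand of GRCm38), the targeted gene, was measured first as a check of the labels. In vehicle its level was 89.7 and 98.2 CPM in the Rosa26 libraries, 59.1 and 63.1 CPM with sgRNA1, and 34.5 and 34.7 CPM with sgRNA2. With IFNγ the values were 80.4 and 83.3 CPM, 60.7 and 60.2 CPM, and 32.3 and 33.6 CPM in the same order. All 8 Cop1-guide libraries lay below all 4 Rosa26 libraries, and the populations kept one order in both treatments: Rosa26 highest, sgRNA1 between, sgRNA2 lowest. The direction matches the labels, and the reads do not say whether the remaining RNA encodes a functional protein. In these bulk samples, fewer cells that keep the gene intact and less RNA per cell cannot be told apart.

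The mean of both guides was lower than Rosa26 by a log2 change of -1.03 ± 0.05 in vehicle (2.04-fold lower, adjusted p = 6.01e-21) and -0.88 ± 0.05 with IFNγ (1.83-fold lower, adjusted p = 2.34e-18). With sgRNA1 the level was 65.0% of Rosa26 in vehicle and 73.8% with IFNγ. With sgRNA2 it was 36.8% and 40.2%. The difference between the guides was itself tested: sgRNA2 libraries were lower than sgRNA1 libraries by a log2 change of -0.82 ± 0.06 in vehicle (adjusted p = 7.51e-13) and -0.88 ± 0.06 with IFNγ (adjusted p = 1.28e-13). Cop1 passed in 12 of 13 alternatives in each treatment. The alternative it missed summed the libraries of each population, so that the population rather than the library was the unit. There its change was -0.97 in vehicle and -0.80 with IFNγ. That setting has a single Rosa26 sample per treatment and takes its spread from the difference between the guides. Since the guides differ in Cop1 itself, it cannot decide how stable the lower Cop1 level is.

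DET1 is the partner that links COP1 to DDB1. Det1 (chromosome 7) was among the members with the fewest counts. It measured 14.8 and 11.9 CPM in Rosa26 vehicle, 13.8 and 15.8 CPM with sgRNA1 and 15.1 and 14.7 CPM with sgRNA2. With IFNγ it lay at 15.8 and 14.4 CPM in Rosa26, 12.7 and 13.9 CPM with sgRNA1 and 12.7 and 13.6 CPM with sgRNA2. The groups overlapped in vehicle, and with IFNγ both Rosa26 libraries lay above the Cop1-guide libraries. No Det1 difference passed the test: the Cop1-loss difference was 0.15 (95% interval -0.05 to 0.35) in vehicle and -0.19 (-0.39 to 0.00) with IFNγ. Per kb of merged exons, Cop1 exceeded Det1 1.77-fold in Rosa26 vehicle (± 0.382, SD, n = 2) and lay below it, at a ratio of 0.571 ± 0.0139, with sgRNA2. With the longest transcript as gene length the same ratios were 2.33 and 0.751, so that both length choices put Cop1 above Det1 in Rosa26 cells and below it with sgRNA2.

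Dda1 and Rbx1 were both higher with the Cop1 guides. Dda1 (chromosome 8), which encodes a small subunit that binds DDB1 complexes, measured 88.9 and 82.6 CPM in Rosa26 vehicle, 96.5 and 98.5 CPM with sgRNA1 and 98.7 and 94.9 CPM with sgRNA2. With IFNγ it measured 90.8 and 90.7 CPM, 101 and 104 CPM, and 95 and 102 CPM. The Cop1-guide libraries did not overlap the Rosa26 libraries of their treatment. For this and the other members, the share of all genes separated in this way was not counted. Its change was 0.18 ± 0.04 in vehicle (adjusted p = 0.000833) and 0.15 ± 0.04 with IFNγ (adjusted p = 0.00420). Without Rosa26 vehicle replicate 2 the vehicle change was 0.13 and missed the threshold (adjusted p = 0.0786, range over 13 alternatives 0.000174 to 0.140). With the libraries of each population summed, Dda1 missed it in both treatments (adjusted p = 0.140 and 0.179).

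Rbx1 (chromosome 15), the RING subunit that holds the ubiquitin-conjugating enzyme, measured 81.4 and 77.3 CPM in Rosa26 vehicle, 96.1 and 98.3 CPM with sgRNA1 and 98.0 and 93.2 CPM with sgRNA2. With IFNγ it measured 75.7 and 70.5 CPM, 93.7 and 92.8 CPM, and 85.8 and 87.2 CPM. No Cop1-guide library overlapped the Rosa26 libraries in either treatment. The change was 0.28 ± 0.04 in vehicle (adjusted p = 1.24e-06) and 0.30 ± 0.04 with IFNγ (adjusted p = 4.44e-07), and Rbx1 stayed past the threshold in all 13 alternatives of each comparison.

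DDB1 is the adaptor that joins many substrate receptors to the CUL4 cullins. Ddb1 (chromosome 19) had the highest level per kb of the members and measured 1582 and 1589 CPM in Rosa26 vehicle, 1412 and 1431 CPM with sgRNA1 and 1319 and 1322 CPM with sgRNA2. With IFNγ it measured 1481 and 1478 CPM, 1358 and 1395 CPM, and 1358 and 1336 CPM. The groups stood in the same order as for Cop1 in both treatments. With IFNγ the Cop1-guide groups nearly met, at 1358.3 CPM in the lower sgRNA1 library and 1358.0 CPM in the higher sgRNA2 library. The change of Ddb1 was -0.21 ± 0.02 in vehicle (adjusted p = 1.96e-11). It was -0.12 ± 0.02 with IFNγ (adjusted p = 5.24e-06). With the libraries of each population summed, Ddb1 missed the threshold in both treatments (adjusted p = 0.0689 and 0.242; ranges over 13 alternatives 1.37e-23 to 0.0689 and 1.16e-08 to 0.242). Its exons overlap those of Tkfc on the other strand over 246 bp, and those of Dda1 overlap Ano8 over 80 bp; the strand setting of the counting is not given in the sources used here, so reads from these stretches cannot be assigned with certainty.

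CUL4A and CUL4B are the scaffolds of the ligase. Cul4a (chromosome 8) lay between 208 and 219 CPM in all 12 libraries, and its Cop1-loss difference was -0.00 (95% interval -0.06 to 0.05) in vehicle and 0.03 (-0.03 to 0.08) with IFNγ. Cul4b (chromosome X) measured 103 and 103 CPM in Rosa26 vehicle against 104 to 111 CPM in the Cop1-guide libraries, a difference of 0.08 ± 0.04 that did not pass the test (adjusted p = 0.148). With IFNγ Cul4b measured 101 and 95.2 CPM in Rosa26, 106 and 104 CPM with sgRNA1, and 119 and 108 CPM with sgRNA2, and the change of 0.16 ± 0.04 passed (adjusted p = 0.00181). That call ended without Rosa26 IFNγ replicate 2 and with the libraries of each population summed (0.12, adjusted p = 0.0845, and 0.16, adjusted p = 0.179; range over 13 alternatives 0.000461 to 0.179). Per kb of merged exons, Cul4a made up 56.0% of the summed CUL4 cullin transcripts in Rosa26 vehicle and 53.4% to 56.5% across the 6 group means. The share depended on the length used: by the longest transcript it was 65.48% in Rosa26 vehicle and 63.05% to 65.91% across the groups.

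**Figure D2:**
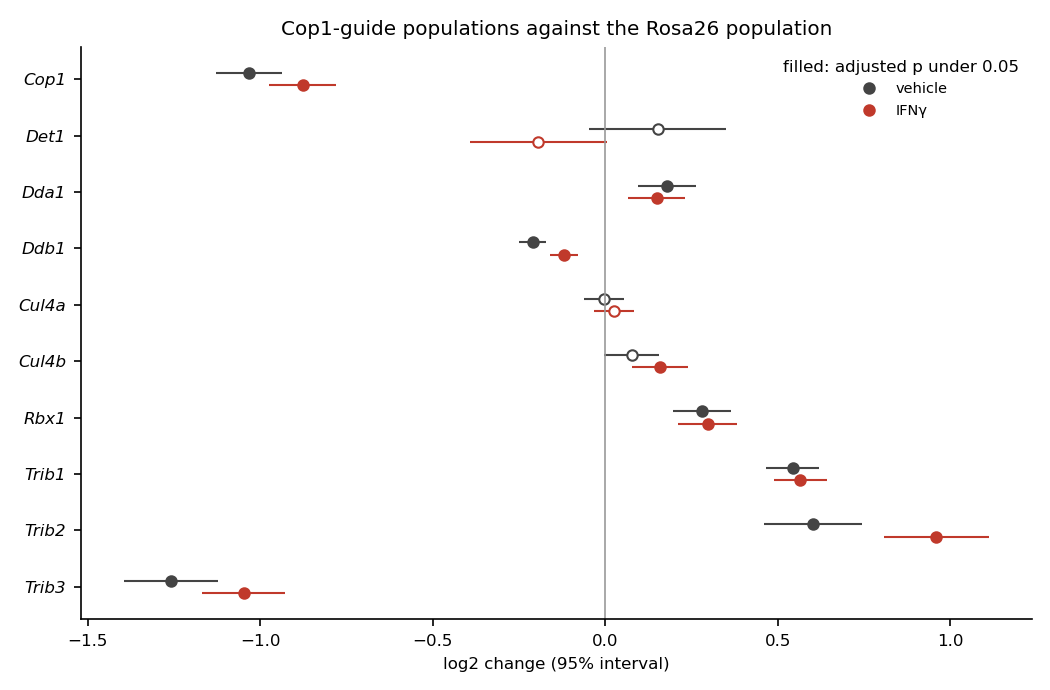
Log2 change of each of the 10 genes (y axis) in the mean of both Cop1-guide populations against the Rosa26 population (x axis), in vehicle (grey) and with IFNγ (red). Points are edgeR estimates, bars 95% intervals, and filled points passed an adjusted p of 0.05. Trib3 and Cop1 lie farthest to the left, at -1.26 and -1.03 in vehicle, and Trib2 farthest to the right, at 0.60 in vehicle and 0.96 with IFNγ.

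With IFNγ, the same comparison of Cop1-guide and Rosa26 populations called 8 of the 10 genes, where 40.6% of all genes were called. Of those, 48.9% were higher, and 36.1% with library totals alone. Cul4b joined the 4 genes that were higher in vehicle (5 higher, against 19.8% of all genes), and Cop1, Ddb1 and Trib3 were lower (3 lower, against 20.7%). The Cul4b change did not differ between treatments past the threshold (difference 0.08, 95% interval -0.03 to 0.20, adjusted p = 0.492). At 1.5-fold or more, 3 members were called, the same Cop1, Trib2 and Trib3, where 5.75% of all genes were. Each guide taken alone against Rosa26 called 7 members in vehicle, where sgRNA1 called 33.4% and sgRNA2 29.2% of all genes. With IFNγ each guide again called 7 members, against 38.2% of all genes for sgRNA1 and 32.9% for sgRNA2. With IFNγ the lists differed by 1 gene: Dda1 was called with sgRNA1 only (0.18, against 0.12 and adjusted p = 0.0612 with sgRNA2), and Cul4b with sgRNA2 only (0.22, against 0.10 and adjusted p = 0.0958 with sgRNA1), and neither gene differed between the guides past the threshold. These comparisons share the Rosa26 libraries of their treatment.

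Trib1 and Trib2, the Tribbles genes whose proteins are best known for delivering C/EBPα to COP1, were both higher with the Cop1 guides. Trib1 (ENSMUSG00000032501.9, chromosome 15) measured 89.1 and 90.3 CPM in Rosa26 vehicle, 130 and 134 CPM with sgRNA1 and 127 and 131 CPM with sgRNA2. With IFNγ it measured 90.5 and 96.6 CPM, 142 and 139 CPM, and 140 and 132 CPM. Every Cop1-guide library lay above every Rosa26 library. The change was 0.54 ± 0.04 in vehicle (1.46-fold, adjusted p = 7.74e-15) and 0.56 ± 0.04 with IFNγ (1.48-fold, adjusted p = 1.22e-15), and it did not differ between treatments past the threshold (difference 0.02, 95% interval -0.09 to 0.13).

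Trib2 (ENSMUSG00000020601.8, chromosome 12) stood at 24.2 and 23.8 CPM in Rosa26 vehicle, and reached 36.5 and 37.8 CPM with sgRNA1 and 33.6 and 37.9 CPM with sgRNA2. With IFNγ it measured 16.5 and 17.9 CPM in Rosa26, 35.3 and 36.1 CPM with sgRNA1, and 28.7 and 34.0 CPM with sgRNA2. Every Cop1-guide library was above every Rosa26 library, and the Rosa26 libraries were lower with IFNγ than in vehicle. The change was 0.60 ± 0.07 in vehicle (1.52-fold, adjusted p = 6.45e-09) and 0.96 ± 0.08 with IFNγ (1.94-fold, adjusted p = 1.40e-13).

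Trib3 (ENSMUSG00000032715.9, chromosome 2) went the other way. It measured 36.4 and 40.1 CPM in Rosa26 vehicle, 13.7 and 15.9 CPM with sgRNA1 and 16.5 and 18.3 CPM with sgRNA2. With IFNγ it measured 63.4 and 63.6 CPM in Rosa26, 29.6 and 27.5 CPM with sgRNA1, and 33.3 and 32.8 CPM with sgRNA2. IFNγ-treated Cop1-guide libraries thus stayed below even the vehicle-treated Rosa26 libraries. The vehicle change of Trib3 was -1.26 ± 0.07 (2.39-fold lower, adjusted p = 1.74e-18), and that with IFNγ -1.05 ± 0.06 (2.07-fold lower, adjusted p = 7.37e-18). Trib1, Trib2 and Trib3 all stayed past the threshold with their direction in the 13 alternatives of each of these comparisons.

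Read per kb of merged exons, which puts the genes of a family on one scale, the Tribbles genes changed places. In Rosa26 vehicle libraries Trib3 stood at 18.0 ± 1.25 (SD, n = 2), Trib1 at 14.4 ± 0.13 and Trib2 at 5.53 ± 0.07 CPM per kb. With sgRNA1 in vehicle Trib1 led with 21.2 ± 0.46, Trib2 followed with 8.56 ± 0.21 and Trib3 came last with 6.96 ± 0.72 CPM per kb. With sgRNA2 Trib1 led with 20.7 ± 0.53, while Trib2 at 8.25 ± 0.69 and Trib3 at 8.18 ± 0.58 did not differ beyond their spread. The sum over the 3 genes was 37.9 ± 1.31 in Rosa26, 36.7 ± 1.40 with sgRNA1 and 37.1 ± 1.79 CPM per kb with sgRNA2, which are within 1 SD of each other. The share of Trib3 in that sum was 47.5% ± 1.66 in Rosa26, 18.9% ± 1.25 with sgRNA1 and 22.1% ± 0.49 with sgRNA2.

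With IFNγ the sum was higher in every group, at 48.8 ± 1.00 in Rosa26, 44.2 ± 0.98 with sgRNA1 and 44.5 ± 0.21 CPM per kb with sgRNA2. Trib3 then made up 61.2% ± 1.11, 30.4% ± 0.90 and 34.9% ± 0.22 of it, and Trib2 8.12%, 18.7% and 16.3%. With the longest transcript as gene length, Trib1 and not Trib3 had the largest share in Rosa26 vehicle (45.7% against 41.7%), and Trib3 the largest in Rosa26 IFNγ (55.0%). The share of Trib3 was lower with both guides by either length.

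**Figure D3:**
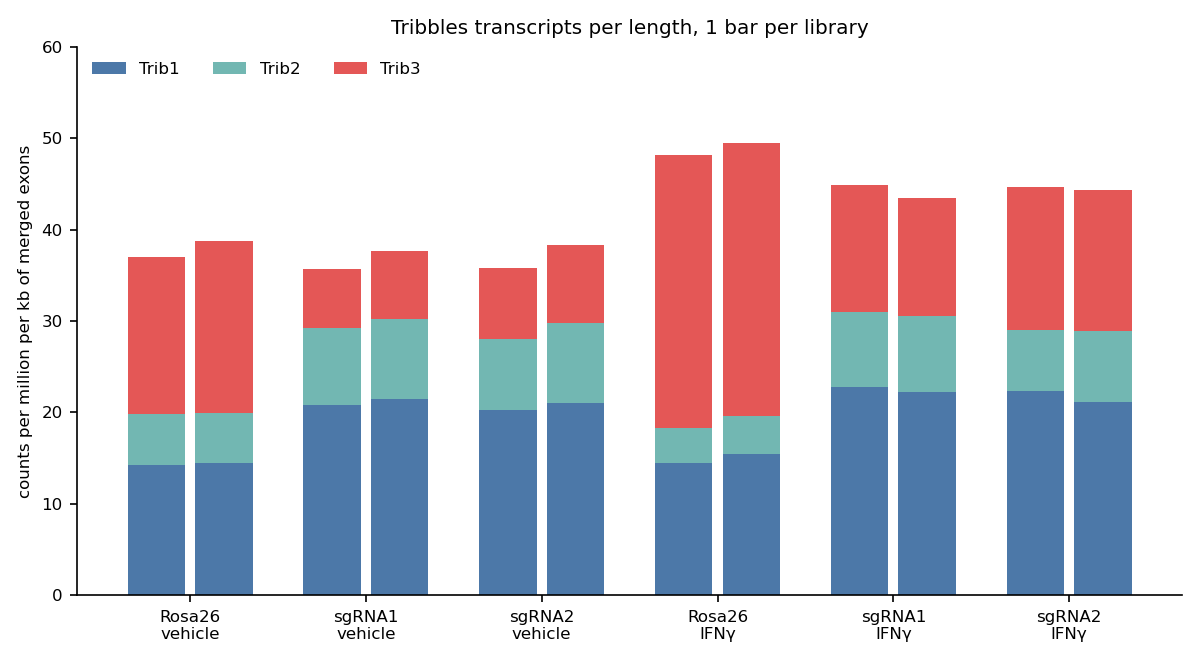
CPM per kb of merged exons (y axis, linear, from 0) of Trib1 (blue), Trib2 (turquoise) and Trib3 (red), stacked, with 1 bar for each of the 12 libraries in their 6 groups (x axis). Vehicle bars reach 35.7 to 38.8 in all 3 populations, while the red portion is 46.3% and 48.7% of the bar in Rosa26 libraries and 18.1% to 22.4% in Cop1-guide libraries.

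Over all 10 members in Rosa26 vehicle, the order per kb of merged exons was Ddb1 (247), Cul4a (33.8), Dda1 (30.1), Cul4b (26.5), Trib3 (18.0), Rbx1 (17.4), Trib1 (14.4), Trib2 (5.53), Cop1 (5.36) and Det1 (3.08 CPM per kb). The neighbours Trib3 and Rbx1, and Trib2 and Cop1, did not differ beyond their spread between replicates. The order of the lower members depended on the length used, since the merged exons of Cop1 span 17516 bp and its longest transcript 6999 bp. By the longest transcript Cop1 stood at 13.4 and Trib2 at 5.71 CPM per kb, and Ddb1, Cul4a, Dda1 and Cul4b kept their places.

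Since Trib2 and Trib3 moved in opposite directions, the sequences just upstream of their start sites are shown for comparison. RefSeq's promoter table (GRCm38.p6) held 9 of the 10 members, without Trib1. The stretches printed, 5′ to 3′ on the gene's strand, lie at chr2:152344061-152344310 for Trib3 (minus strand, the 250 bases before the RefSeq start site) and at chr12:15816923-15817035 for Trib2 (minus strand, the 113 of those bases that lie outside the gene's GENCODE model).
Trib3 upstream: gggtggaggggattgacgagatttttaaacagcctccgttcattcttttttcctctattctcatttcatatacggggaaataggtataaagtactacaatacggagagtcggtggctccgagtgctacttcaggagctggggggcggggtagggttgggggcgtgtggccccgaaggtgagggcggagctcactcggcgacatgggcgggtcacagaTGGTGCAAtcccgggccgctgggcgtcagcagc
Trib2 upstream: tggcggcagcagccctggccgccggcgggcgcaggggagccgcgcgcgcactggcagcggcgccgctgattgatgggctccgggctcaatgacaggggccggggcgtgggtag
The full 250 bases were 57.2% G or C for Trib3 and 73.6% for Trib2. Both strands were searched for the core of a C/EBP-ATF element (TGATGNAA, found in 3.45% of 32851 promoters of the same length), an AP-1 site (TGANTCA, 6.75%), a CRE (TGACGTCA, 1.55%) and a GAS element (TTCNNNGAA, 7.02%), and none of these letters occurred in the 250 bases of any of the 9 members. After the sequences had been read, the C/EBP-ATF core was also searched with base 3 free (TGNTGNAA, which includes every TGATGNAA match and occurs in 12.8% of promoters). It matched Trib3 once, at bases -33 to -26 before the start site, shown in capitals, and Det1 once on the other strand, at -232 to -225.

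IFNγ, a cytokine that induces many genes, was compared with vehicle in each population. In Rosa26 cells 4 of the 10 passed the test, where 32.8% of all genes did: Trib3 rose (1 gene, against 16.6%), and Cop1, Ddb1 and Trib2 fell (3 genes, against 16.2%). Trib3 was the 1 member past 1.5-fold, where 7.08% of all genes were. In the Cop1-guide populations 3 of the 10 passed, where 34.2% of all genes did (52.8% of those higher, and 40.0% with library totals alone): Trib3 and Trib1 rose (2 genes, against 18.1%) and Rbx1 fell (1 gene, against 16.1%). Trib3 was again the 1 member past 1.5-fold, where 6.19% of all genes were.

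Trib3 rose by 0.73 ± 0.07 in Rosa26 cells (1.66-fold, adjusted p = 2.38e-11) and by 0.94 ± 0.06 in Cop1-guide cells (1.92-fold, adjusted p = 4.35e-17). The difference between these responses was 0.21 (95% interval 0.03 to 0.39) and did not pass the test (adjusted p = 0.209). Both guides showed the response, at 0.96 ± 0.09 with sgRNA1 and 0.92 ± 0.09 with sgRNA2. Trib2 fell by 0.48 ± 0.09 in Rosa26 cells (1.39-fold lower, adjusted p = 3.96e-05), while its difference in Cop1-guide cells was -0.12 ± 0.06 (adjusted p = 0.0843).

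Cop1 fell by 0.20 ± 0.05 with IFNγ in Rosa26 cells (adjusted p = 0.00361), and Ddb1 fell by 0.10 ± 0.02 (adjusted p = 0.000759). In Cop1-guide cells Cop1 was at -0.04 ± 0.04 (adjusted p = 0.507) and Ddb1 at -0.01 ± 0.02 (adjusted p = 0.739). The difference between the Cop1 responses was 0.16 (95% interval 0.02 to 0.29) and did not pass the test (adjusted p = 0.209). That of Ddb1 is given below. The Cop1 call ended without Rosa26 vehicle replicate 2 (-0.13, adjusted p = 0.144) and without Rosa26 IFNγ replicate 1 (-0.17, adjusted p = 0.0602). With the libraries of each population summed, neither call held. That setting has a single Rosa26 sample per treatment and takes its spread from the difference between the Cop1 guides. It therefore cannot say how stable these Rosa26 changes are. In Cop1-guide cells the changes of Trib1 (0.08 ± 0.03, adjusted p = 0.0318) and Rbx1 (-0.10 ± 0.03, adjusted p = 0.0192) were 1.06-fold higher and 1.07-fold lower. In Rosa26 cells, where neither was called, Trib1 was at 0.06 ± 0.05 (adjusted p = 0.343) and Rbx1 at -0.12 ± 0.05 (adjusted p = 0.0671). The responses of both genes did not differ between these cells past the threshold (interaction 0.02 for each, adjusted p = 0.884 and 0.922). Over 15 alternatives in Cop1-guide cells, Trib1 passed in 8 (adjusted p from 0.0247 to 0.354) and Rbx1 in 10 (0.00215 to 0.368). Both calls ended without Cop1 sgRNA2 vehicle replicate 1 (0.112 for Trib1 and 0.0924 for Rbx1) and without Cop1 sgRNA2 IFNγ replicate 1 (0.203 and 0.0672). The latter left Trib3 alone. The Trib1 call also ended without Cop1 sgRNA1 replicate 1 of vehicle (0.127) or IFNγ (0.116), and that of Rbx1 without Cop1 sgRNA1 replicate 2 of vehicle (0.0598) or IFNγ (0.0559). Trib2 was called as lower without Cop1 sgRNA2 IFNγ replicate 2 or without Cop1 sgRNA2 vehicle replicate 1.

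**Figure D4:**
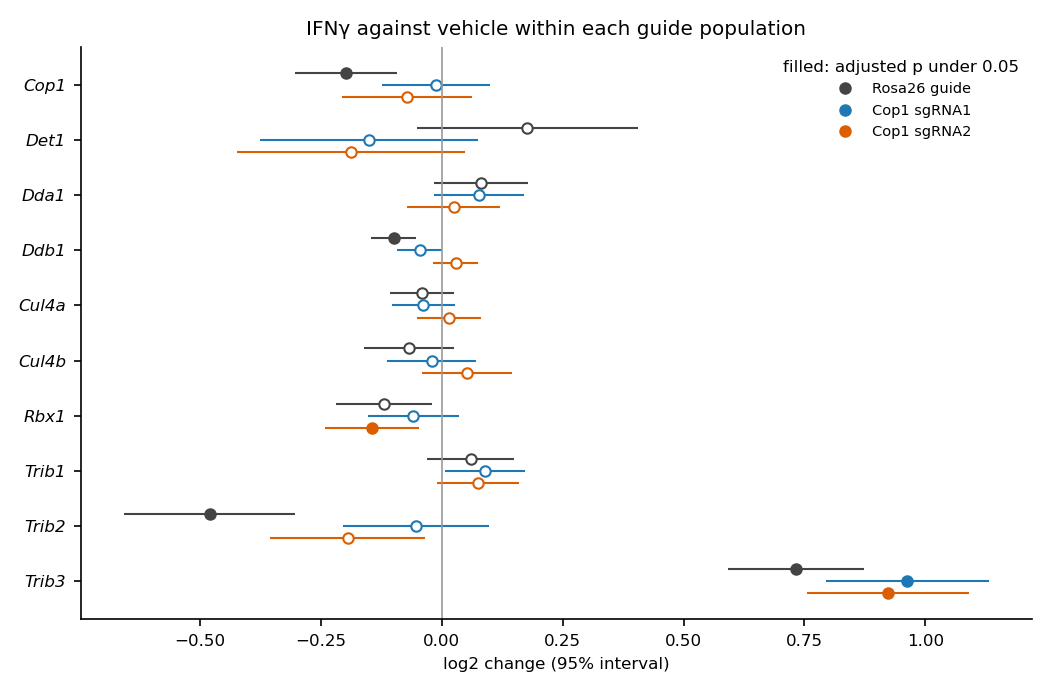
Log2 change of each of the 10 genes (y axis) with IFNγ against vehicle (x axis) in the Rosa26 population (grey), the Cop1 sgRNA1 population (blue) and the Cop1 sgRNA2 population (orange). Points are edgeR estimates, bars 95% intervals, and filled points passed an adjusted p of 0.05. Trib3 lies to the right in all 3 populations (0.73, 0.96 and 0.92), and Trib2 passed in Rosa26 cells (-0.48) with estimates of -0.05 and -0.19 in the Cop1-guide populations.

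The interaction, which asks whether the Cop1-loss difference changed with IFNγ, was called for 2 of the 10 genes, where 5.74% of all genes were called (58.9% of those positive, and 46.9% with library totals alone). They were Trib2 (0.36 ± 0.11, adjusted p = 0.0359) and Ddb1 (0.09 ± 0.03, adjusted p = 0.0494). Neither call was firm: over 18 alternatives Trib2 passed in 8 (adjusted p from 0.0134 to 0.999) and Ddb1 in 3 (0.0340 to 0.999). Trib2 missed the threshold with DESeq2 (adjusted p = 0.0958) and without either Rosa26 vehicle library (0.129 without replicate 1 and 0.109 without replicate 2). It also missed it without Rosa26 IFNγ replicate 1 (0.238), Cop1 sgRNA1 vehicle replicate 1 (0.0720), Cop1 sgRNA1 IFNγ replicate 2 (0.0615), or Cop1 sgRNA2 vehicle replicate 1 (0.0733) or IFNγ replicate 2 (0.135). Without any 1 of these 7 libraries no member was called. The interaction estimate of Trib2 stayed between 0.28 and 0.42 throughout. With the replicate number as a block, the adjusted p of Ddb1 was 0.0540.

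Between the Cop1-guide populations, sgRNA2 against sgRNA1 called 2 members in vehicle, both lower (5.99% of all genes were called, 3.41% lower and 2.58% higher): Cop1, given above, and Ddb1 (-0.11 ± 0.02, adjusted p = 0.00253). Without Cop1 sgRNA1 vehicle replicate 2 only Cop1 was left, with Ddb1 at an adjusted p of 0.0675. With IFNγ the 1 member called was Cop1 (9.41% of all genes were called, 4.33% lower and 5.07% higher), and without Cop1 sgRNA2 IFNγ replicate 2 Cul4b and Trib2 were called too. Although Cop1 RNA was lower with sgRNA2 than with sgRNA1, the Tribbles genes did not differ between these populations past the threshold. In vehicle the differences were -0.03 (95% interval -0.12 to 0.05) for Trib1, -0.05 (-0.20 to 0.10) for Trib2 and 0.25 (0.07 to 0.43, adjusted p = 0.112) for Trib3. With IFNγ they were -0.05 (-0.13 to 0.04), -0.19 (-0.35 to -0.03, adjusted p = 0.137) and 0.21 (0.05 to 0.37, adjusted p = 0.0909). The interval for Trib3 lies on the side of a higher level with sgRNA2 in both treatments.

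The tested genes near the Tribbles genes and Cop1 on the chromosome had medians close to 0 in vehicle. Within 5 Mb of Trib3, 97 tested genes had a median Cop1-loss change of 0.01 in vehicle, within 5 Mb of Trib1 31 genes had -0.01, and within 5 Mb of Trib2 14 genes had 0.04. Around Cop1 itself 43 genes had a median of 0.02. In the same order, 15, 6, 4 and 6 of these genes were called higher in vehicle, and 11, 10, 1 and 11 lower. Over all genes 16.6% were higher and 19.2% lower. With IFNγ the medians were 0.05, -0.05, 0.09 and -0.08. Around Ddb1, 128 genes had medians of -0.03 in vehicle and -0.04 with IFNγ, and 12 were called higher and 28 lower in vehicle. Around the remaining members the vehicle medians ran from -0.03 (Det1) to 0.05 (Cul4b). Of these, lower calls outnumbered higher ones around Cul4a alone (8 against 4). A part of the chromosomal region in the members' changes was not tested.

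The genes whose log2 CPM over the 12 libraries was most like that of Cop1 or of each Tribbles gene are given as a description only, since the libraries share their groups. They were sought among the 9047 genes whose log2 CPM averaged 3 or more. For Cop1 they were Ganab (Pearson r = 0.942), Prdx5 (0.940) and Cp (0.940). For Trib1 they were Fam49b (0.994), Top1 (0.987) and Vgll4 (0.985). For Trib2 they were Ywhae (0.985), Rpsa (0.981) and Btbd2 (0.978), and for Trib3 Nup160 (0.992), Pdcd11 (0.991) and Samd12 (0.989). Cp went from a mean of 167 CPM in Rosa26 vehicle to 91.5 CPM with sgRNA2 in vehicle, and Samd12 from 66.8 CPM in Rosa26 IFNγ to 32.5 CPM with sgRNA1 in vehicle. The group means of Top1 lay between 162 and 178 CPM, a narrower relative range than that of Trib1, whose means ran from 89.7 to 141 CPM.

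Other genes of the ligase and its pathways were read as lists. With Cop1 loss, the shares of all genes to set beside each list's counts are 16.6% higher and 19.2% lower in vehicle, and 19.8% higher and 20.7% lower with IFNγ. Among 18 tested COP1 substrates and close relatives, 2 rose and 10 fell with Cop1 loss in vehicle (median -0.21, against -0.01 over all genes), and 2 rose and 7 fell with IFNγ (median -0.20). The 2 that rose are no more than the share over all genes. With the libraries of each population summed, 6 of them were called in vehicle. The C/EBP factor gene Cebpd had the lowest value in both treatments (-1.02 ± 0.08 in vehicle and -1.24 ± 0.07 with IFNγ). The others named were the ETS factor gene Ets2 (-0.70 ± 0.04 and -0.82 ± 0.04), Cebpb (-0.63 ± 0.05 and -0.82 ± 0.05) and the AP-1 gene Junb (-0.46 ± 0.03 and -0.97 ± 0.03). Jun, which encodes the substrate c-Jun, rose by 0.34 ± 0.04 in vehicle and fell by 0.26 ± 0.04 with IFNγ, and its interaction passed the test (-0.60 ± 0.06, adjusted p = 2.30e-10). Etv5 fell in vehicle (-0.25 ± 0.06), while Etv4 was at 0.01 ± 0.04 in vehicle and at 0.11 ± 0.05 with IFNγ (adjusted p = 0.0475), a call that ended with DESeq2 (adjusted p = 0.106), without the low-count filter (0.0552) and without Rosa26 IFNγ replicate 1 (0.628), Cop1 sgRNA1 IFNγ replicate 1 (0.112) or 2 (0.0532), or Cop1 sgRNA2 IFNγ replicate 2 (0.146).

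Among 12 other partners of COP1 and DET1, 2 rose and 5 fell in vehicle, and 2 rose and 4 fell with IFNγ; the 2 that rose are close to the share over all genes. Without Rosa26 vehicle replicate 2, 4 of them were called in vehicle. Stk40, whose protein is a Tribbles-related pseudokinase that binds COP1, did not pass in either treatment (0.02 ± 0.09 and -0.10 ± 0.09). The DNA-damage kinase gene Atm (-0.37 ± 0.06), the ubiquitin gene Ubb (-0.16 ± 0.02) and the ligase gene Huwe1 (-0.41 ± 0.05) fell in vehicle, and the ubiquitin-conjugating enzyme gene Ube2e3 rose (0.17 ± 0.06 in vehicle and 0.39 ± 0.06 with IFNγ). The vehicle call of Ube2e3 ended without either Rosa26 vehicle library (adjusted p = 0.0866 and 0.0968). Of 24 other CRL4 components and substrate receptors, 3 rose and 4 fell in vehicle, and 5 rose and 8 fell with IFNγ, where 6 were called without Rosa26 IFNγ replicate 2. The count of 7 in vehicle lies below the 35.8% of all genes called, and that of 13 with IFNγ stands beside 40.6%. Wdtc1 (-0.42 ± 0.06), Dtl (-0.23 ± 0.04) and Dcaf6 (-0.37 ± 0.07) had the smallest p in vehicle, and Dcaf1 (0.24 ± 0.04), Dcaf15 (-0.23 ± 0.05) and Ddb2 (-0.62 ± 0.14) with IFNγ.

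Cullin ligases are switched on by attachment of NEDD8 and off by the COP9 signalosome, whose catalytic subunit is COPS5. Of 22 genes of that cycle, 8 rose and 1 fell in vehicle (median 0.10), and 7 rose and 3 fell with IFNγ (median 0.04). Calls for 9 and 10 of 22 genes are near the 35.8% and 40.6% of all genes called. The IFNγ count of 10 went to 5 with DESeq2, 4 without Rosa26 IFNγ replicate 1, 6 without replicate 2 and 6 without Cop1 sgRNA2 IFNγ replicate 1, and none of the 22 genes was called in vehicle with the libraries of each population summed (edgeR). Nedd8 itself did not pass (0.06 ± 0.04 in vehicle and 0.00 ± 0.04 with IFNγ), and Cops5 rose in vehicle only (0.11 ± 0.04, adjusted p = 0.0144), against -0.00 ± 0.04 with IFNγ, a difference that did not pass (adjusted p = 0.217). The Cops5 call ended without Rosa26 vehicle replicate 2 (adjusted p = 0.157). Nae1 (0.19 ± 0.04) and Uba3 (0.15 ± 0.04), the subunits of the NEDD8-activating enzyme, and the cullin-exchange gene Cand2 (0.26 ± 0.06) rose in vehicle, and the NEDD8 protease gene Senp8 fell with IFNγ (-0.44 ± 0.10). Among 6 other cullin ligase genes 1 rose in each treatment: Cul2 in vehicle (0.21 ± 0.05) and Cul7 with IFNγ (0.36 ± 0.05).

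Among 10 genes of kinases that Tribbles proteins bind, 1 rose and 1 fell in vehicle (Akt1 at 0.09 ± 0.02 and Mapk3 at -0.12 ± 0.04), and 3 rose with IFNγ (Akt1 at 0.17 ± 0.02, Map2k2 at 0.17 ± 0.03 and Map3k11 at 0.14 ± 0.05). The Mapk3 and Map3k11 calls ended with DESeq2 (adjusted p = 0.0984 and 0.0869), and both vehicle calls ended without Rosa26 vehicle replicate 2 (0.134 for Akt1 and 0.419 for Mapk3). The counts of 2 and 3 lie below the 35.8% and 40.6% of all genes called. In 21 genes of the ATF4 and CHOP axis, to which Trib3 is known to respond, 20 fell and 0 rose with Cop1 loss in vehicle, and 19 fell with IFNγ (medians -0.49 and -0.66), beside 19.2% and 20.7% of all genes that fell. Among the stress factor genes, Ddit3, which encodes CHOP, fell by 1.49 ± 0.11 in vehicle and by 1.81 ± 0.11 with IFNγ, Atf3 by 1.17 ± 0.07 and 1.71 ± 0.05, and Atf4 by 0.30 ± 0.03 and 0.69 ± 0.03. Chac1, an ATF4 target that degrades glutathione, fell by 1.39 ± 0.07 and 1.39 ± 0.06, and Nupr1 by 1.05 ± 0.07 and 1.18 ± 0.07. With IFNγ 16 of the 21 rose in Rosa26 cells, where 16.6% of all genes did, and 15 rose and 2 fell in Cop1-guide cells, where 18.1% rose and 16.1% fell. Cebpb stands in this list and in that of the substrates. With the libraries of each population summed, 12 of the 21 genes were called in vehicle.

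**Figure D5:**
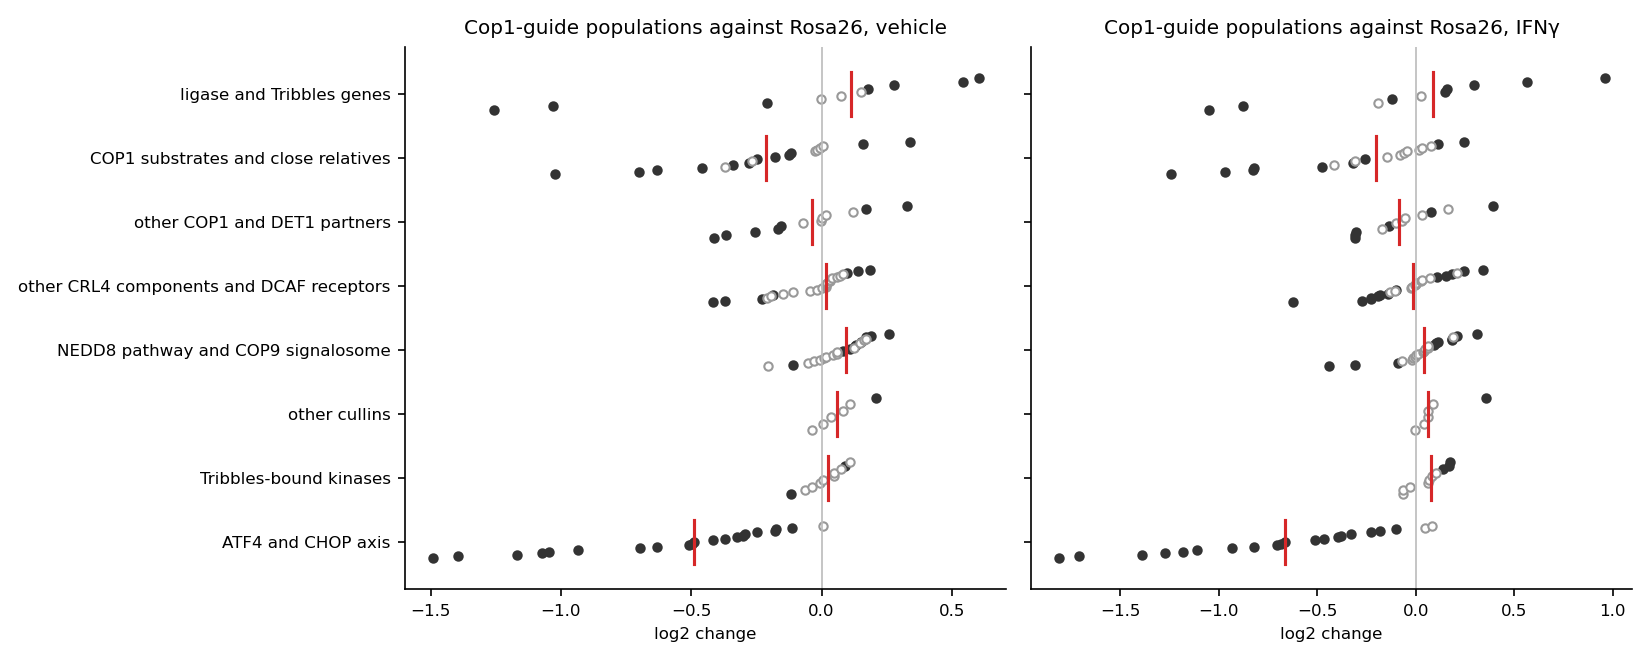
Log2 change with Cop1 loss (x axis) of the 10 ligase and Tribbles genes and of the tested genes of 7 related lists (y axis), in vehicle (left) and with IFNγ (right). Each point is 1 gene, filled where the adjusted p was under 0.05, and red bars are the lists' medians. The ATF4 and CHOP list lies farthest to the left, with medians of -0.49 and -0.66, and the medians of the other cullins and of the NEDD8 list lie between 0.04 and 0.10.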

How the data were processed

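The authors deposited 1 table of whole-number read counts per gene for all 12 libraries, not normalized. STAR 2.4.0, HTSeq, DESeq2 1.10 and the build mm10 are named in the submitters' processing notes; the sources used here give no annotation, strand setting or handling of multi-mapped reads. Per the labels' protocols, libraries were made from total RNA with an Illumina TruSeq kit. A row of totals was left out; it exceeded the gene sum by 360 counts in 1 library. Columns of other samples numbered 0.

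Counts were tested with edgeR 4.0.16 (R 4.3.3): TMM scaling, filterByExpr (minimum count 10, minimum total 15), 1 mean for each of 6 groups over all 12 libraries, robust quasi-likelihood F test (6 residual and a median of 34.5 prior degrees of freedom), Benjamini-Hochberg adjustment over 11904 genes. The script was tested on simulated data. Gene models and lengths came from GENCODE for GRCm38; all 10 members matched.

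The members and lists were chosen with earlier results of these data known. Named genes were all members; for Cop1, Trib1, Trib2 and Trib3 the 3 genes of most similar log2 CPM; per list the 3 called genes of smallest p in each Cop1-loss comparison; and Jun, Cebpb, Etv4, Etv5, Ets2, Stk40, Cops5, Nedd8, Atf4 and Ddit3 in any case. Alternatives were other scalings, no low-count filter, DESeq2 1.42.0, a replicate block, only the groups compared, each library left out, and libraries summed per population. Rnf7 and Cebpb stood in 2 lists each.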

Additional observations from a re-analysis of the deposited data

Results flagged for a closer look

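Several members were marked for a closer look because 2 groups differed by a test of the difference itself. The Cop1-loss difference of Trib2 was larger with IFNγ than in vehicle, by 0.36 on the log2 scale, and that of Ddb1 was less negative with IFNγ, by 0.0912. Neither of these calls was firm: over 18 alternatives Trib2 passed in 8 and Ddb1 in 3. Cop1 was lower with sgRNA2 than with sgRNA1, at -0.82 in vehicle and -0.88 with IFNγ, and Ddb1 was lower with sgRNA2 in vehicle, at -0.11. Groups of 2 libraries are too small for a check of single outlying libraries.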

How the results depend on the processing

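With the libraries of each population summed, so that each population counted once, 4 members were called for Cop1 loss in vehicle (Rbx1, Trib1, Trib2 and Trib3) and the same 4 with IFNγ, 2 for IFNγ in Rosa26 cells, 1 for IFNγ in Cop1-guide cells and 0 for the interaction (0 of all genes by edgeR there). This setting has fewer samples. Each treatment has a single Rosa26 sample in it, so the spread comes only from the difference between the Cop1-guide populations. The interaction count of 2 went to 1 with RLE scaling, without the low-count filter and with DESeq2, and to 0 with library totals alone. With single libraries left out, the counts ran from 6 to 7 for Cop1 loss in vehicle, 7 to 8 with IFNγ, 3 to 4 for IFNγ in Rosa26 cells, 1 to 4 in Cop1-guide cells, 0 to 2 for the interaction, and 1 to 2 in vehicle and 1 to 3 with IFNγ between guides; the cause was not tested.

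Same-numbered libraries did not deviate together (15 pairs, r from -0.05 to 0.07), so the numbers were not taken as pairs. With the replicate block the interaction count was 1, and the block changed no other of these counts by over 1.5 times.

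Of the members' and named genes' Cop1-loss changes, some near 0 that had not passed the test turned sign; the cause was not tested. That of Cul4a was 0.000120 with DESeq2, 0.00323 with only the groups compared and -0.0196 to 0.0142 with libraries left out in vehicle, and -0.0166 with library totals alone with IFNγ. That of Stk40 in vehicle was -0.00817 with library totals alone and -0.0373 to 0.0742 with libraries left out. With IFNγ, Cops5 was at -0.0253 to 0.0131 with libraries left out, and Nedd8 at -0.0418 with library totals alone, -4.42e-05 with only the groups compared, -0.000740 with populations summed and -0.0593 to 0.0624 with libraries left out. Of 58 called member changes, 0 turned sign, 18 crossed the threshold in some alternative and 40 did not in any. Of 72 not called, 25 turned sign and 7 crossed the threshold in some alternative. These changes span all comparisons, among them each guide alone and the mean of both, which reuse the same libraries and are not separate results. With populations summed, no value could be had for guides against each other or for comparisons of a single guide. Nor could one be had for the interaction with only the groups compared.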
